A study of Rattus norvegicus with 119 samples.

Results

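The transcripts described here are 10 markers of white blood cells, most of them markers of the myeloid line: Tyrobp, Fcer1g, Laptm5, Coro1a, Ptprc, Cd14, Cd68, Aif1, Itgam and Csf1r. They were taken by symbol, as every probe of the array whose platform annotation, with symbols brought up to date, names one of these genes. This gave 15 probes of 30367 and 10 genes of 16951. They were measured in bladder urothelium scraped from Sprague-Dawley rats that carried no named genetic change, and each array held RNA of 1 animal. Female and male rats received the methylcellulose vehicle, pioglitazone hydrochloride at 16 mg/kg/day (the low dose) or at 63 mg/kg/day (the high dose), or rosiglitazone maleate at 10 mg/kg/day, by mouth every day for 3, 28 or 90 days, and tissue was taken on the day after the last dose. Both drugs are thiazolidinediones, which activate the nuclear receptor PPAR gamma. The labels give no ages. Every treated group was set against the vehicle group of its own sex and dosing time. A sex at a dosing time is called a stratum below, so that each drug arm has 6 strata.

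The proteins of these genes sit at successive steps of the work of macrophages and related cells. Tyrobp and Fcer1g are small membrane adaptors that pair with activating and Fc receptors and pass the signal inward through a cytoplasmic ITAM motif. Csf1r is the receptor for the growth factor on which most tissue macrophages depend, Cd14 binds lipopolysaccharide and hands it to the Toll-like receptor, and Itgam is the alpha chain of an adhesion and complement receptor. Ptprc (CD45) is the membrane phosphatase carried by all nucleated blood cells, Coro1a (coronin 1A) and Aif1 (IBA1) bind actin, and Laptm5 and Cd68 are proteins of the lysosome. Macrophages and dendritic cells lie in and beneath the bladder epithelium, where they sample material that crosses it. In bulk tissue, fewer cells of a type and less RNA per cell cannot be told apart.

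Transcription of many of these genes in mouse and human macrophages depends on PU.1, a factor whose sites hold the letters GAGGAA. RefSeq promoters (build GRCr8, 250 bases before to 50 bases after the transcript start) were available for 7 of the 10 genes and not for Tyrobp, Fcer1g and Aif1. The letters GAGGAA, or TTCCTC on the other strand, occurred in 6 of these 7 promoters, and in 27.6% of the 33469 promoters in the table. The promoters of Laptm5, Coro1a and Ptprc are shown because these genes changed with treatment, and that of Cd14 because its level, as described further on, followed some of the other markers and ran against others. Capitals mark each match, and each sequence is written 5′ to 3′ on the strand of its gene.

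Laptm5: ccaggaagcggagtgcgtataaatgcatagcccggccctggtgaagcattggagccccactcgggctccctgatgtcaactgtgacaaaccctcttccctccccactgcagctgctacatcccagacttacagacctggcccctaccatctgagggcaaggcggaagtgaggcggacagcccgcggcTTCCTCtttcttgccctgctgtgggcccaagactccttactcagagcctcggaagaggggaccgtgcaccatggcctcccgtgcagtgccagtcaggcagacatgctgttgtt

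Coro1a: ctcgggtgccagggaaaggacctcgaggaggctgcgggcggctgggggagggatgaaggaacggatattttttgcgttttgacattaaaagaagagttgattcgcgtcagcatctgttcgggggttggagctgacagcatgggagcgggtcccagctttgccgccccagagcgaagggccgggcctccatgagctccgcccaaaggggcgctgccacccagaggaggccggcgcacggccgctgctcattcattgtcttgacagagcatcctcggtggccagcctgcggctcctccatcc

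Ptprc: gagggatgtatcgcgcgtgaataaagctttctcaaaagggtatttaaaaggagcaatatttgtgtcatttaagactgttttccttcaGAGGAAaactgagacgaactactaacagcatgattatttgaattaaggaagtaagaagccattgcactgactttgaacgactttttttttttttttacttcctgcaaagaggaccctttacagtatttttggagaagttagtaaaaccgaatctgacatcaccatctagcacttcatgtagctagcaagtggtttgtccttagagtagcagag

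Cd14: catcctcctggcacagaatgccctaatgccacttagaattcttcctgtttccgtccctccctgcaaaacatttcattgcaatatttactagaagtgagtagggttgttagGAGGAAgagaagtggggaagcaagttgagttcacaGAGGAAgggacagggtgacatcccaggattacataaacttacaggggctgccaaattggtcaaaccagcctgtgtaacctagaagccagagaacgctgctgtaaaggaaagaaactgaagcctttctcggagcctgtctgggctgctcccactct

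The Laptm5 window lies at chr5:148371630-148371929 on the plus strand, and its match begins at position -63 from the start. The Ptprc window lies at chr13:52259697-52259996 on the minus strand, with a match at -163. The Cd14 window at chr18:28611109-28611408 on the minus strand held 2 matches, at -140 and -105, and the Coro1a window at chr1:190731054-190731353 on the minus strand held 0. The annotated Cd14 gene spans chr18:28609558-28611409, so its window and both matches lie inside the gene, before a transcript start within it. Cd68, Itgam and Csf1r had 2 matches each. A match is a run of letters in this window and not a measured binding site, and the arrays hold no measurement of binding.

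The comparison rests on 30 arrays of vehicle, 28 of low-dose pioglitazone, 28 of high-dose pioglitazone and 30 of rosiglitazone, with 4 or 5 in each of 24 groups. Another 3 arrays, whose labels do not pass them in quality control, were not used. Values are log2 signals, and the precision is limited by how many animals there were. The median correlation of an array with the others had a median of 0.98, but 12 arrays lay apart from the rest and 2 of them were under 0.9 (low-dose pioglitazone, female, day 28, replicate 5 at 0.861, and high-dose pioglitazone, female, day 3, replicate 3 at 0.817). Vehicle arrays of day 3 are also among the 12 (female replicates 1 and 2 at 0.952 and 0.950, and male replicate 3 at 0.930). The uroplakin genes that define urothelium had mean signals of 17.67 (Upk1a), 17.80 (Upk1b), 16.35 (Upk2) and 18.02 (Upk3a), so the tissue label was borne out. The scrapings also held signal of other layers, since Acta2 of smooth muscle averaged 9.81, Col1a1 of fibroblasts 12.62 and Pecam1 of endothelium 9.71.

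All 10 markers lay lower in each of the 3 drug arms than in vehicle when the 6 strata were averaged. With low-dose pioglitazone 4 of 10 markers fell at an adjusted p under 0.05 (Tyrobp, Fcer1g, Laptm5 and Coro1a), where 1.23% of the 12713 genes tested fell. With high-dose pioglitazone 6 of 10 fell (the same 4 with Ptprc and Cd14), against 3.88% of all genes, and with rosiglitazone 6 of 10 fell (the same 4 with Ptprc and Aif1), against 3.12%. No marker rose in any arm. The median difference of the 10 markers from vehicle was -0.37, -0.40 and -0.36 on the log2 scale for the low dose, the high dose and rosiglitazone, and the median over all genes tested was 0.01, -0.01 and 0.00. The 3 arms share their vehicle arrays, so they are not independent of each other.

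**Figure D1:**
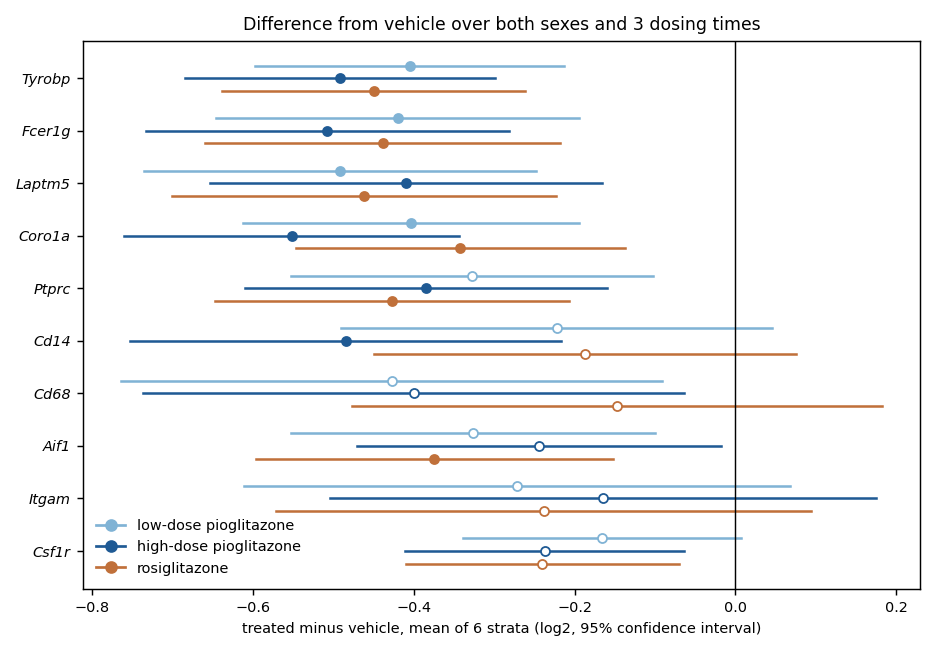
Difference from vehicle (log2 signal, treated minus vehicle, averaged over 6 strata) of the 10 markers in each drug arm, as points with 95% confidence intervals; filled points passed an adjusted p under 0.05 (limma) and open points did not. Every point lies left of 0, and Tyrobp, Fcer1g, Laptm5 and Coro1a are filled in all 3 arms.

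The ITAM adaptors Tyrobp and Fcer1g were among the markers that fell in every arm. Tyrobp signal ran from 10.87 to 12.61 over the vehicle arrays, with a median of 11.84. Its range was 10.79 to 12.77 with a median of 11.48 at the low pioglitazone dose, 10.35 to 12.19 with a median of 11.43 at the high dose, and 9.86 to 12.40 with a median of 11.45 with rosiglitazone. The ranges of treated and vehicle arrays therefore overlapped widely, while the medians of all 3 drug arms lay below that of vehicle. Averaged over strata, Tyrobp differed from vehicle by -0.41 ± 0.10 (SE; adjusted p = 0.008), -0.49 ± 0.10 (adjusted p = 0.000186) and -0.45 ± 0.095 (adjusted p = 0.000642) for the low dose, the high dose and rosiglitazone by limma. This put its treated signal at 75.5%, 71.1% and 73.2% of vehicle. Tyrobp was below vehicle in 6 of 6 strata in each arm, where 6.32%, 4.78% and 3.67% of all genes were.

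Fcer1g, the adaptor of the Fc receptors, had differences of similar size. Its vehicle arrays ran from 9.09 to 11.23 with a median of 9.99, and the medians of the drug arms were 9.60, 9.71 and 9.71 in the same order. The differences were -0.42 ± 0.11 (SE; adjusted p = 0.023), -0.51 ± 0.11 (adjusted p = 0.00114) and -0.44 ± 0.11 (adjusted p = 0.007), and Fcer1g too was below vehicle in 6 of 6 strata in each arm. The low-dose call for Fcer1g was lost when replicate 1 or replicate 2 of every vehicle group was left out, and likewise without low-dose replicate 1, 3 or 4. The same leave-outs ended the low-dose call for Laptm5, and all of them but low-dose replicate 3 ended that for Coro1a. The high-dose calls for Tyrobp, Fcer1g and Coro1a were kept in all 23 alternative settings tried for each, and their largest adjusted p-values there were 0.0108, 0.0229 and 0.0348.

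Of the genes of actin and the lysosome, Coro1a had the largest mean difference of the 10 markers at the high dose. Coro1a signal ran from 9.71 to 11.75 in vehicle, with a median of 10.82, and the medians were 10.41 at the low dose, 10.38 at the high dose and 10.46 with rosiglitazone. Coro1a differed from vehicle by -0.40 ± 0.11 (SE; adjusted p = 0.0173), -0.55 ± 0.11 (adjusted p = 0.000105) and -0.34 ± 0.10 (adjusted p = 0.03) in that order. Aif1, the other actin-binding protein, passed with rosiglitazone (-0.37 ± 0.11, adjusted p = 0.0281), and its differences of -0.33 at the low dose (adjusted p = 0.0954) and -0.24 at the high dose (adjusted p = 0.217) did not pass. A second probe of Aif1 passed in all 3 arms when every probe was tested on its own, as described below. Laptm5, the lysosomal protein of leukocytes, differed by -0.49 ± 0.12 (adjusted p = 0.0122), -0.41 ± 0.12 (adjusted p = 0.025) and -0.46 ± 0.12 (adjusted p = 0.00926). Its vehicle arrays ran from 10.85 to 13.00, the widest span of the genes called in every arm. Its high-dose call was lost without vehicle replicate 1 or 2 or high-dose replicate 2 or 3. With rosiglitazone the calls for Laptm5, Coro1a and Aif1 were lost without vehicle replicate 1 or 2 or rosiglitazone replicate 1 or 3, and that for Coro1a also without replicate 4. Cd68, the lysosomal glycoprotein of macrophages, passed in 0 arms, with differences of -0.43, -0.40 and -0.15 and adjusted p-values of 0.151, 0.158 and 0.661. One rosiglitazone array (male, day 28, replicate 3) read 12.99 for Cd68, where the other 4 of its group lay between 8.29 and 8.70. That array is among the 12 of low correlation, at 0.936. Leaving out replicate 3 of the rosiglitazone groups moved the Cd68 difference to -0.27, still without a call.

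Of the membrane receptors, the phosphatase Ptprc fell at the high dose (-0.38 ± 0.11, SE; adjusted p = 0.0218) and with rosiglitazone (-0.43 ± 0.11; adjusted p = 0.00921), while its low-dose difference of -0.33 had an adjusted p of 0.0921. Ptprc signal ran from 5.99 to 7.67 in vehicle with a median of 6.95. Its mean signal was the lowest of the 10 markers, at the 47.2th percentile of all genes on the array. Cd14 passed at the high dose (-0.48 ± 0.14; adjusted p = 0.0136), and its differences were -0.22 at the low dose and -0.19 with rosiglitazone. The high-dose call for Ptprc was lost without vehicle replicate 1 or 2 or high-dose replicate 3 or 4, and its rosiglitazone call without vehicle replicate 2 or rosiglitazone replicate 3. The high-dose call for Cd14 was lost without high-dose replicate 3 and without vehicle replicate 3, with adjusted p-values in all settings between 0.00496 and 0.0851. On the high-dose side, the female day 3 array of replicate 3 read 6.89 for Cd14 and the other 3 of its group read 9.41, 10.29 and 9.39. Csf1r had differences of -0.17, -0.24 and -0.24 with adjusted p-values of 0.29, 0.086 and 0.0782, and Itgam had -0.27, -0.16 and -0.24 with adjusted p-values of 0.387, 0.657 and 0.431. Neither receptor passed in any arm.

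**Figure D2:**
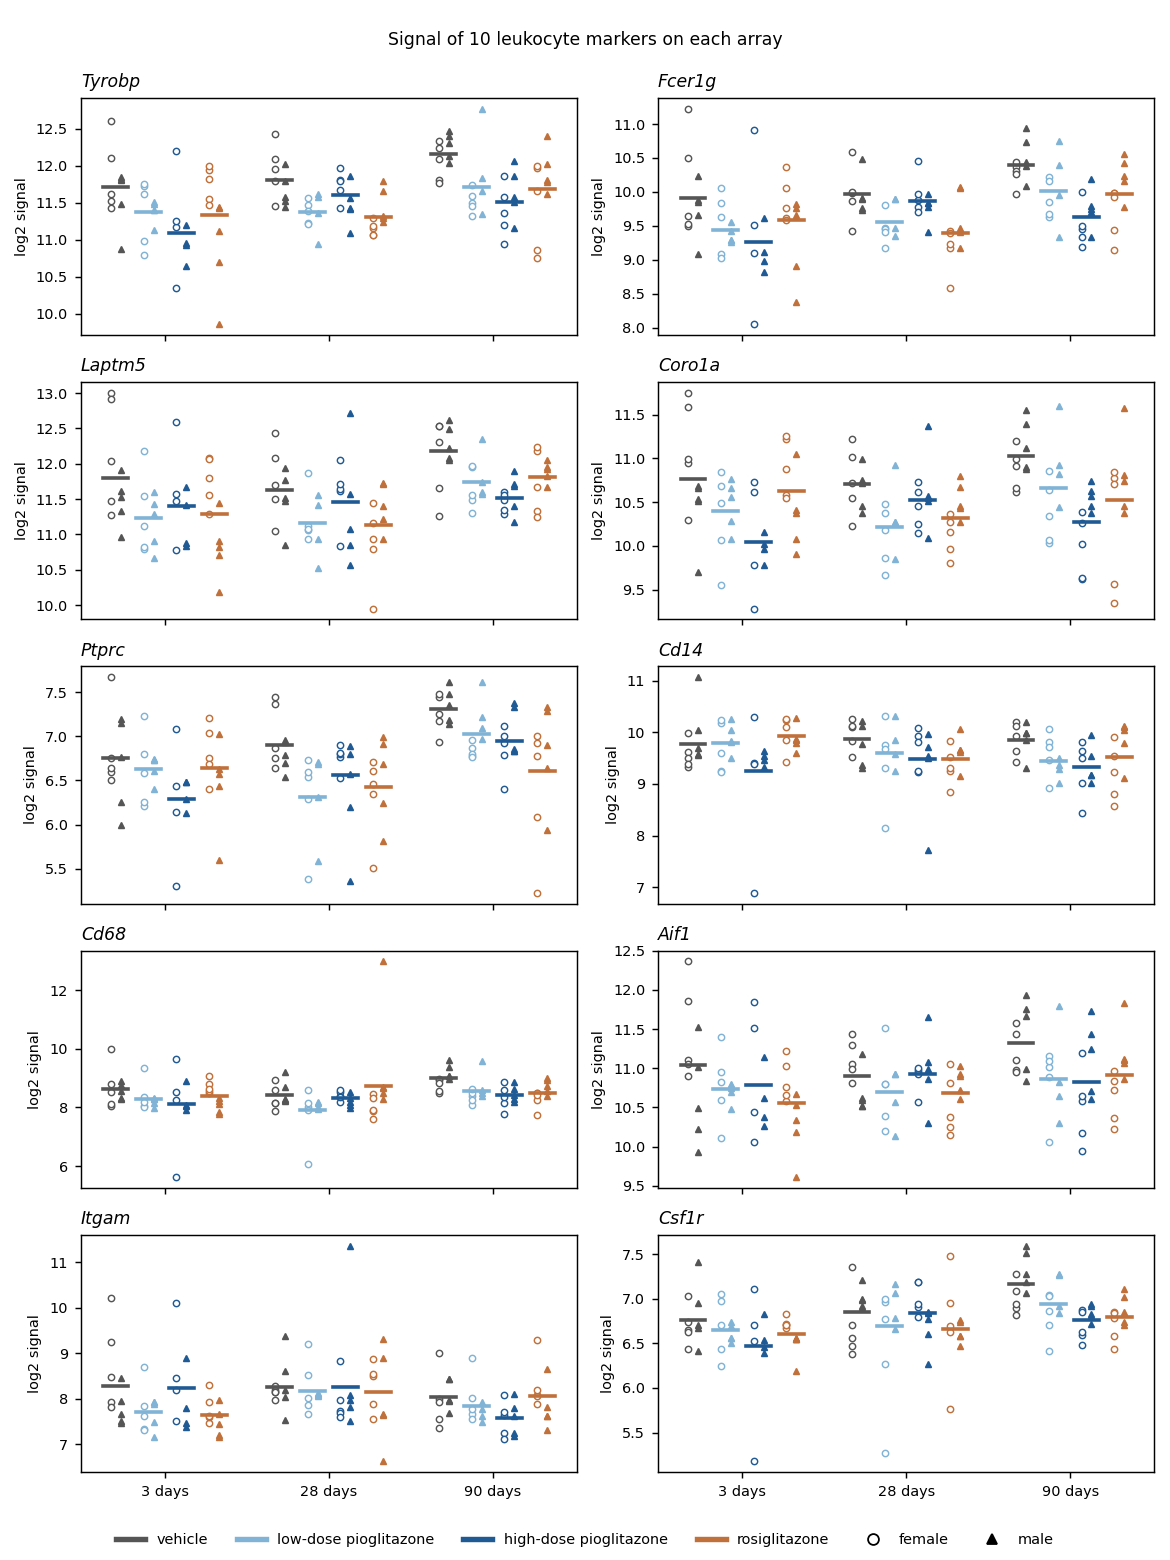
Log2 signal of each marker on every array, by dosing time (horizontal axis) and arm (colour), with open circles for females, filled triangles for males and a bar at the mean of both sexes. The bars of the drug arms lie below the vehicle bar for Tyrobp, Fcer1g, Laptm5, Coro1a and Ptprc at each of the 3 times, and single arrays stand far out for Cd14, Cd68 and Itgam.

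By dosing time, calls were made only after 90 days. High-dose pioglitazone for 90 days lowered 4 of 10 markers (Coro1a, Fcer1g, Laptm5 and Tyrobp), where 2.38% of all genes were called lower, and rosiglitazone for 90 days lowered 1 (Ptprc), where 1.38% were. In the other 7 combinations of drug arm and day 0 of 10 markers passed by limma. At an unadjusted p under 0.05 were 0 to 5 markers and 793 to 1998 of the 12713 genes tested. The share of all genes called lower there was 0.00787%, 0.189% and 0.252% at 3, 28 and 90 days of the low dose, 0.0315% and 0.212% at 3 and 28 days of the high dose, and 0.0944% and 0.85% at 3 and 28 days of rosiglitazone.

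After 90 days the female vehicle arrays read 12.09, 11.81, 12.33, 11.77 and 12.24 for Tyrobp, and the high-dose female arrays 11.20, 11.87, 11.36, 11.58 and 10.94. In males the vehicle arrays read 12.48, 12.30, 12.41, 12.03 and 12.13, and the high-dose arrays 12.06, 11.86, 11.16, 11.51 and 11.57. In each sex 4 of 5 treated arrays lay below the lowest vehicle array and 1 lay within the vehicle range. Over both sexes the difference for Tyrobp at 90 days was -0.65 ± 0.16 (SE; adjusted p = 0.00838).

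Coro1a gave the clearest separation at this time. Its female vehicle arrays read 11.00, 10.61, 11.20, 10.66 and 10.91 and its high-dose female arrays 9.62, 10.26, 10.39, 10.02 and 9.63. Its male vehicle arrays read 11.40, 11.12, 11.56, 10.90 and 10.88 and its high-dose male arrays 10.74, 10.38, 10.45, 10.57 and 10.63. All 5 treated arrays lay below all 5 vehicle arrays in both sexes, as was so for 2.82% of all genes in females and 2.28% in males. The difference for Coro1a was -0.75 ± 0.18 (SE; adjusted p = 0.00408), or 59.3% of vehicle.

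Fcer1g in female vehicle rats read 10.37, 9.97, 10.45, 10.31 and 10.26 at 90 days, and in high-dose females 9.33, 10.00, 9.45, 9.49 and 9.19. The male vehicle arrays read 10.74, 10.44, 10.94, 10.09 and 10.38 and the male high-dose arrays 10.20, 9.75, 9.33, 9.79 and 9.71. Again 4 of 5 treated arrays in each sex lay below the whole vehicle range, and the difference was -0.77 ± 0.19 (SE; adjusted p = 0.00723), the largest of the 10 at this time. Laptm5 separated in males only: the 5 vehicle males read 12.23, 12.49, 12.62, 12.05 and 12.08 against 11.68, 11.90, 11.18, 11.71 and 11.40 with the high dose. In females the Laptm5 vehicle arrays spread from 11.26 to 12.54 and covered all 5 treated values, which ran from 11.29 to 11.60. Its difference was -0.66 ± 0.21 (SE) with an adjusted p of 0.0482. This call was lost in 16 of 23 alternative settings, where the adjusted p reached 0.522, and among these were leave-outs of vehicle replicates 1, 2, 3 and 5 and of each high-dose replicate.

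Ptprc after 90 days of rosiglitazone read 5.23, 6.92, 6.08, 7.00 and 6.78 in females, against 7.44, 7.25, 7.48, 6.93 and 7.17 with vehicle. In males it read 6.90, 7.33, 5.94, 6.65 and 7.29, against 7.48, 7.19, 7.62, 7.13 and 7.36. The groups overlapped in both sexes, and 3 low arrays (5.23, 6.08 and 5.94) stood under the rest. The arrays at 5.23 and 5.94 are among the 12 of low correlation, and without those 12 the difference was -0.37 with an adjusted p of 0.222. The difference was -0.69 ± 0.19 (SE; adjusted p = 0.0328), and the call was lost in 10 of 22 alternative settings, with adjusted p-values between 0.0120 and 0.315. Among these were leave-outs of vehicle replicates 1, 2, 3 and 5 and of rosiglitazone replicates 1, 3 and 4.

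After 28 days of high-dose pioglitazone the differences were small, with a median of -0.14 over the 10 markers and a range from -0.39 (Cd14) to 0.03 (Aif1). The medians were -0.48 after 3 days and -0.56 after 90 days of the same dose. Fcer1g, for example, differed from vehicle by -0.65, -0.11 and -0.77 after 3, 28 and 90 days, and Coro1a by -0.73, -0.18 and -0.75. The difference across days was tested as such, and 0 of 10 markers passed in any arm by limma (adjusted p-values from 0.81 upward at the high dose), with 0, 2 and 0 at an unadjusted p under 0.05 for the low dose, the high dose and rosiglitazone. Of all genes 0.00787%, 0.0157% and 0.0393% passed this test, and 507, 754 and 1366 of the 12713 reached an unadjusted p under 0.05. The low dose gave medians of -0.34, -0.42 and -0.40 after 3, 28 and 90 days, and rosiglitazone -0.28, -0.38 and -0.42.

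Within strata, 4 or 5 treated arrays were set against 5 vehicle arrays. Of the 60 differences in each arm (10 markers in 6 strata), 55 were below 0 at the low dose, 55 at the high dose and 52 with rosiglitazone. Below 0 in 6 of 6 strata were 6, 6 and 5 markers, among them Tyrobp, Fcer1g, Laptm5 and Ptprc in all 3 arms. Only 1 of the 180 differences passed: Coro1a in females after 3 days of the high dose (-1.01 ± 0.27, SE; adjusted p = 0.0130), where 6.78% of all genes were called lower. Coro1a there read 9.78, 9.28, 10.62 and 10.73 in the treated females and 11.59, 11.75, 10.30, 10.95 and 10.99 with vehicle, so the groups overlapped. The array at 9.28 is the replicate 3 array of lowest correlation named above, and without high-dose replicate 3 the difference was -0.74 with an adjusted p of 0.432. The call was also lost without vehicle replicate 1 (adjusted p = 0.0532) and without vehicle replicate 2 (adjusted p = 0.0575). In this stratum the vehicle arrays of replicates 1 and 2 read highest, at 11.59 and 11.75, and both are among the 12 of low correlation. The difference was -0.20 with array weights (adjusted p = 0.669), -0.37 without the 12 arrays of low correlation (adjusted p = 0.560) and -0.70 with the smooth muscle, fibroblast and erythrocyte lists as covariates (adjusted p = 0.135), while with the failing arrays included it was -1.96 (adjusted p = 0.00315). In the other 17 strata 0 to 6 of 10 markers reached an unadjusted p under 0.05, as did 453 to 1971 of the 12713 genes tested. There 0 markers passed by limma, where few genes in all were called lower. In females at 3, 28 and 90 days these shares of all genes were 0%, 0.0157% and 0.00787% at the low dose, 6.78%, 0% and 0.606% at the high dose and 0.0472%, 0.149% and 1.67% with rosiglitazone. In males they were 0.00787%, 0.0629% and 0.0708% at the low dose, 0.0315%, 0.0787% and 0.362% at the high dose and 0.0315%, 0.543% and 0.00787% with rosiglitazone.

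Groups of a stratum did not overlap, with every treated array below every vehicle array, in 11 of 180 cases. These were spread over Tyrobp (low-dose females at 90 days and rosiglitazone females at 28 days), Laptm5 (high-dose and rosiglitazone males at 90 days), Coro1a (high-dose females and males at 90 days), Cd68 (low-dose males at 28 days and high-dose males at 90 days) and Csf1r (high-dose males at 28 and 90 days and rosiglitazone males at 28 days). Over all genes tested, 1.53% of such cases did not overlap in this direction. In females at 3, 28 and 90 days the shares were 0.676%, 1.31% and 1.1% at the low dose, 2.19%, 1.46% and 2.82% at the high dose and 1.41%, 1.66% and 3.26% with rosiglitazone. In males they were 0.0865%, 2.69% and 2.56%, then 0.684%, 0.511% and 2.28%, and then 0.354%, 0.739% and 1.83% in the same order. In the rosiglitazone females at 28 days Tyrobp read 11.07, 11.30, 11.16, 11.18 and 11.06, a narrow group, where vehicle read 12.09, 12.43, 11.80, 11.96 and 11.46.

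**Figure D3:**
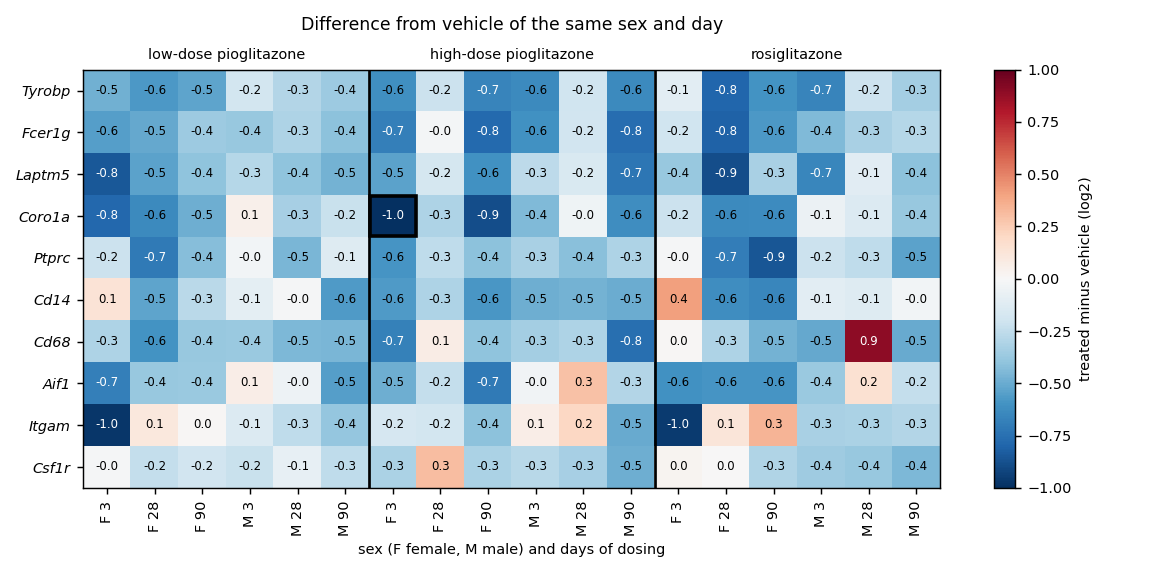
Difference from vehicle of the same sex and day (log2, treated minus vehicle) of each marker in the 18 strata, with columns for sex and days of dosing within each drug arm, blue below and red above 0, and a frame round the 1 difference that passed an adjusted p under 0.05. The high-dose columns at 28 days are paler than those at 3 and 90 days, and the red cell of Cd68 in males after 28 days of rosiglitazone holds the array at 12.99.

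The effect in females was set against that in males. Averaged over the 3 times, the low dose lowered 2 markers in females (Coro1a and Tyrobp, where 0.173% of all genes fell) and 0 in males (0.283%). In low-dose males 3 markers and 1359 of the 12713 genes tested reached an unadjusted p under 0.05. The high dose lowered 2 in females (Coro1a and Tyrobp; 3.19%) and 1 in males (Tyrobp; 0.598%). Rosiglitazone lowered 5 in females (Aif1, Coro1a, Fcer1g, Ptprc and Tyrobp, where 1.82% of all genes fell) and 0 in males (0.385%). In rosiglitazone males 5 markers and 1551 genes reached an unadjusted p under 0.05. The difference between the sexes itself passed for 0 of 10 markers in each arm by limma, as for 0% of all genes. An unadjusted p under 0.05 was reached by 1, 1 and 0 markers and by 598, 981 and 695 genes. For Coro1a at the low dose the male effect minus the female effect was 0.47 with a 95% confidence interval from 0.05 to 0.88 (adjusted p = 0.998). For Aif1 at the high dose it was 0.47 with an interval from 0.01 to 0.92 (adjusted p = 0.638). Among vehicle animals alone, 0 markers differed between the sexes, where 0.149% of all genes did. In this comparison 2 markers and 1208 of the 12713 genes tested reached an unadjusted p under 0.05.

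The high and the low dose of pioglitazone were compared directly over the 6 strata. The difference passed for 0 of 10 markers by limma and for 0% of all genes. An unadjusted p under 0.05 was reached by 0 markers and by 1090 of the 12713 genes tested. High minus low dose was -0.26 for Cd14 (95% confidence interval -0.54 to 0.01), -0.15 for Coro1a (-0.36 to 0.06), -0.09 for Tyrobp (-0.28 to 0.11) and 0.08 for Laptm5 (-0.17 to 0.33). These intervals leave room for a difference in either direction, except that the one for Cd14 lies almost wholly below 0. Rosiglitazone was given at another dose than pioglitazone, so its values stand beside those of pioglitazone above without a test.

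The vehicle groups of the 3 times were set against each other. In vehicle rats Ptprc averaged 6.75, 6.90 and 7.30 after 3, 28 and 90 days, with ranges of 5.99 to 7.67, 6.54 to 7.45 and 6.93 to 7.62. Tyrobp averaged 11.71, 11.81 and 12.16, and Fcer1g 9.91, 9.97 and 10.39. The difference across vehicle days passed for 0 of 10 markers by limma (smallest adjusted p = 0.110, for Ptprc), where 6.62% of all genes passed. An unadjusted p under 0.05 was reached by 5 markers and by 2921 of the 12713 genes tested. With every probe tested on its own, the second, dimmer probes of Fcer1g and Ptprc did pass (adjusted p = 0.0305 and 0.00705). On these probes 90 minus 3 days was 0.68 for Fcer1g and 0.51 for Ptprc. The median over the 10 markers of 90 minus 28 days was 0.38, and over all genes 0.01. The vehicle groups after 90 days, against which the only calls by day were made, were thus those with the highest mean for 8 of the 10 markers, and the part of this in the calls was not tested.

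The 15 probes allowed a check within genes. Fcer1g, Aif1, Ptprc, Itgam and Csf1r had 2 probes each and the other markers 1, and a gene was represented by the probe with the higher mean signal. Of the 15 probes 14 lay below vehicle in each arm, and the exception was the dimmer probe of Csf1r (0.07, 0.08 and 0.01). Every probe was also tested on its own by limma. The second Fcer1g probe differed from vehicle by -0.32, -0.35 and -0.36 for the low dose, the high dose and rosiglitazone. Its adjusted p-values were 0.101, 0.0343 and 0.0304. The second Aif1 probe differed by -0.40, -0.38 and -0.43 and passed in all 3 arms (adjusted p = 0.0402, 0.0293 and 0.00887). The second probes of Ptprc (-0.04, -0.09 and -0.20) and Itgam (-0.08, -0.03 and -0.01) gave no call. Within groups the probes of a pair correlated at 0.88 for Aif1, 0.78 for Fcer1g and 0.34 for Ptprc, but at -0.09 for Itgam and -0.14 for Csf1r (Pearson, all arrays used). The dimmer probes of Itgam and Ptprc averaged 5.12 and 5.21, under the filter of 5.26. The dimmer probe of Csf1r averaged 6.02, above the filter, so the values of Csf1r differ in sign between its 2 probes in each arm.

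Across arrays, and with the group means removed, most of the markers varied together. These correlations run over all arrays used, describe these arrays only, and share each array's RNA and labelling. The correlation of a marker with the mean of the other 9 was 0.87 for Tyrobp, 0.78 for Coro1a and Fcer1g, 0.61 for Laptm5, 0.58 for Aif1, 0.53 for Ptprc, 0.47 for Cd68 and 0.38 for Csf1r. It was 0.03 for Cd14 and -0.09 for Itgam, each of which followed some markers and ran against others. Cd14 correlated at 0.54 with Csf1r, 0.37 with Cd68 and 0.33 with Ptprc (Spearman 0.34, 0.22 and 0.20). It correlated at -0.30 with Aif1 and -0.27 with Laptm5 (Spearman -0.19 and -0.21). Itgam correlated at 0.46 with Laptm5 and 0.40 with Aif1 (Spearman 0.37 and 0.37) but at -0.34 with Ptprc (Spearman -0.26). Among the 45 pairs the median was 0.37 and the highest value was 0.85, between the adaptors Tyrobp and Fcer1g (Spearman 0.82). The 28 pairs without Cd14 and Itgam had a median of 0.49, and the 17 pairs with either had a median of 0.11 and a highest value of 0.54. The lowest value of all, -0.62 (Spearman -0.54), was that between Cd14 and Itgam. On the array of high-dose pioglitazone, male, day 28, replicate 4, Itgam read 11.37, the highest of all arrays, and Cd14 read 7.73, the lowest of its group. On low-dose pioglitazone, female, day 28, replicate 5, Cd14 (8.14), Ptprc (5.39), Csf1r (5.27), Cd68 (6.06) and Coro1a (9.66) were lowest of their group. Itgam (9.20), Laptm5 (11.87) and Aif1 (11.52) were highest there. On high-dose pioglitazone, female, day 3, replicate 3, Cd14 read 6.89 and Itgam 10.10. These arrays are among the 12 of low correlation, and their part in the correlations was not tested.

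**Figure D4:**
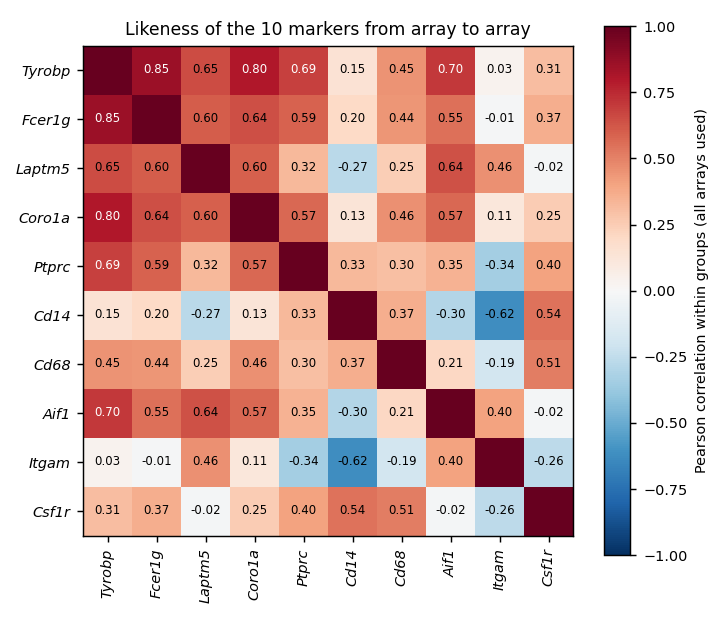
Pearson correlation of each pair of markers over all arrays used after the mean of each of the 24 groups was removed. Tyrobp, Fcer1g, Coro1a, Laptm5, Aif1 and Ptprc form a block of values between 0.32 and 0.85, and 7 of the 9 values below 0 are those of a pair with Cd14 or Itgam.

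The 10 genes whose array-to-array variation was most like the mean of the markers, out of all genes tested, were Ncf1 (Pearson 0.81), Fcgr1a (0.79), Rac2 (0.74), Napsa (0.71), Cd74 (0.71), RT1-DMb (0.71), Clec4a1 (0.70), Gngt2 (0.69), C1qc (0.69) and RT1-Da (0.69) (all arrays used). Ncf1 differed from vehicle by -0.52 (adjusted p = 0.0228), -0.47 (adjusted p = 0.0256) and -0.48 (adjusted p = 0.0227) for the low dose, the high dose and rosiglitazone. Fcgr1a differed by -0.33, -0.35 and -0.39 and was called in all 3 arms, while Rac2 and Gngt2, with differences between -0.33 and -0.48, were called in 0.

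Lists of genes around the markers were then read for the same comparison, in which 1.23%, 3.88% and 3.12% of all genes fell in the 3 arms. Several lists held more genes than were tested, the rest being absent from the array or too dim. Tested were 15 of 22 macrophage and dendritic cell, 11 of 16 ITAM, 8 of 11 CSF1R, 9 of 13 integrin and actin, and 12 of 16 T and NK cell genes. Among genes under the filter were Mrc1, Msr1, Marco, Vsig4 and Mpeg1. Of 15 macrophage and dendritic cell genes tested, 5, 6 and 6 fell with the low dose, the high dose and rosiglitazone, and the list medians were -0.34, -0.35 and -0.38. The complement subunits C1qa and C1qb, the lysosomal protease Ctss and the NADPH oxidase subunits Ncf1 and Ncf4 fell in all 3 arms. Ctss differed by -0.46, -0.55 and -0.46 with adjusted p-values of 0.0260, 0.00149 and 0.0109. Gpnmb, a lysosomal glycoprotein of lipid-laden macrophages that other cells make too, went the other way and rose at the low dose (0.39, adjusted p = 0.0340) and with rosiglitazone (0.51, adjusted p = 0.000868). Of 7 MHC class II genes, which present antigen, 1, 5 and 2 fell, and Cd74, the invariant chain, fell in each arm, most at the high dose (-0.67, adjusted p = 3.68e-05).

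Lists of partners of the markers were read in the same way, beside 1.23%, 3.88% and 3.12% of all genes that fell with the low dose, the high dose and rosiglitazone. Of 11 genes of ITAM receptors and the kinases downstream, 1 fell in each arm, the Fc receptor Fcgr1a, and the list medians were -0.07, -0.08 and -0.23. Of 9 substrates and relatives of CD45, 0, 1 and 0 fell, with list medians of -0.04, -0.03 and -0.07, the call being Cd53, a tetraspanin of leukocytes, at the high dose (-0.48, adjusted p = 0.0449). Of 8 genes of CSF1R ligands and myeloid transcription factors, 1, 2 and 2 fell, with list medians of -0.07, -0.07 and -0.05: Cebpb in each arm (-0.26, -0.29 and -0.23) and Runx1 at the high dose (-0.31, adjusted p = 0.0146) and with rosiglitazone (-0.28, adjusted p = 0.0310). Both encode transcription factors that epithelial cells make as well. Among 8 genes that act with CD14 in lipopolysaccharide recognition 0 fell, and Irak1 rose at the low dose (0.26, adjusted p = 0.0379) and Tirap with rosiglitazone (0.38, adjusted p = 0.0447). Of 9 genes of beta2 integrins and leukocyte actin 0 passed in either direction, and Rac2 was nearest with rosiglitazone (-0.48, adjusted p = 0.0601).

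Markers of other white blood cells were read beside the same shares of all genes. Of 12 T and NK cell genes, 9, 11 and 11 lay below vehicle in the 3 arms, with list medians of -0.15, -0.20 and -0.24, and 1, 2 and 2 fell: Gzma, a granule protease, at the low dose (-0.33, adjusted p = 0.0458) and with rosiglitazone (-0.35, adjusted p = 0.0159), Ccl5, a chemokine, at the high dose (-0.86, adjusted p = 0.000438) and with rosiglitazone (-0.59, adjusted p = 0.0281), and Cd3d, a T cell receptor chain, at the high dose (-0.31, adjusted p = 0.0472). Of 8 mast cell genes 0 passed in any arm, and the list medians were -0.08, 0.03 and -0.14. Of 9 neutrophil genes 3 were bright enough to be tested and 0 passed, and of 8 B and plasma cell genes 1 was tested, without a call. The defining genes Cd79a, Ms4a1 and Cxcr2 averaged 5.23, 5.04 and 5.26 and fell under the filter on dim genes.

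**Figure D5:**
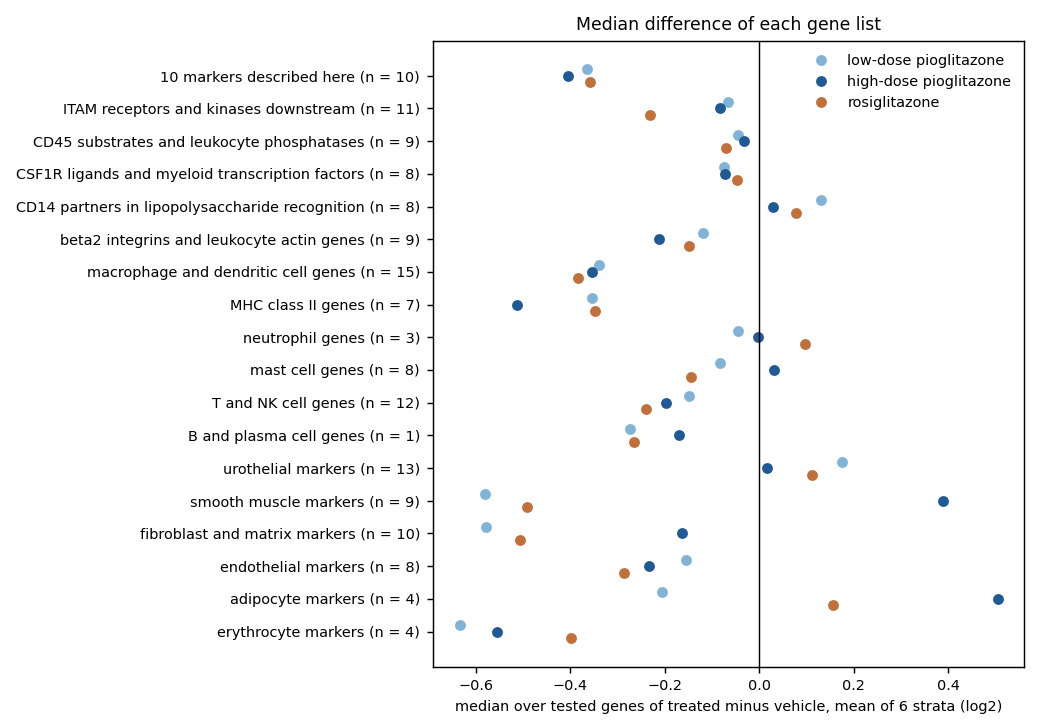
Median over the tested genes of each list (n beside its name) of the difference from vehicle averaged over 6 strata (log2), with a point for each drug arm. The 10 markers, the macrophage and dendritic cell genes and the MHC class II genes lie between -0.34 and -0.51 in all 3 arms, while the smooth muscle list lies at -0.58 and -0.49 at the low dose and with rosiglitazone and at 0.39 at the high dose.

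Genes of the tissue layers beside the epithelium were uneven between scrapings. The mean of the 9 smooth muscle markers ran from 7.26 to 14.65 over the vehicle arrays, from 7.56 to 14.95 at the low dose, from 7.27 to 15.77 at the high dose and from 6.75 to 15.77 with rosiglitazone. Their median differences were -0.58, 0.39 and -0.49, with 0 of 9 called in each arm, where 1.23%, 3.88% and 3.12% of all genes fell. The 10 fibroblast and matrix markers gave -0.58, -0.16 and -0.51 with 0 called, and the 4 erythrocyte markers -0.63, -0.56 and -0.40 with 1 called in each arm, the anion exchanger Slc4a1 of red cells (-0.73, -0.81 and -0.68). The 4 adipocyte markers gave -0.21, 0.50 and 0.16 with 0 called, with 4, 0 and 1 of 4 below vehicle. Of 8 endothelial markers 5, 7 and 6 lay below vehicle, with medians of -0.15, -0.23 and -0.29, and Cldn5 fell with rosiglitazone (-0.71, adjusted p = 0.0281). The 13 urothelial markers had medians of 0.17, 0.02 and 0.11, with 0 called. Within groups, the mean of the 10 markers correlated with the mean of the macrophage list at 0.86 (Pearson, all arrays used; Spearman 0.83) and with that of the MHC class II list at 0.64 (Spearman 0.63). The values for the mast cell and the T and NK cell lists were 0.46 and 0.34 (Spearman 0.42 and 0.37). Of the tissue lists, the endothelial one was highest at 0.34 (Spearman 0.32), and the erythrocyte, fibroblast, adipocyte, urothelial and smooth muscle lists gave 0.24, 0.16, 0.14, 0.01 and -0.02 (Spearman 0.16, 0.14, 0.09, -0.12 and -0.02).

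When the means of the smooth muscle, fibroblast and erythrocyte lists were added to the fit as covariates, a setting chosen after seeing the data, 0 of 10 markers were called lower at the low dose, 4 at the high dose and 4 with rosiglitazone. The high-dose differences were then -0.38 for Tyrobp and -0.41 for Coro1a, both still called. Without the 12 arrays of low correlation, also chosen after seeing the data, the counts were 6, 6 and 4. The shares of all genes called under these settings were not computed.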

How the data were processed

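The deposited values are log2 signals of 1-colour Cy3 Agilent arrays, 1 array per animal, as the authors processed them; limma is named in the submitters' processing notes without a version, and the background correction and normalization are not given in the sources used here. The log2 values were used as deposited, with column medians of 6.40 to 6.63. Probe symbols came from the platform annotation, updated through RefSeq, and 20369 of 30367 probes had 1 symbol and 9998 had none. A gene was its brightest probe by mean over all arrays, and genes in the lowest 25% of mean signal (under 5.26) were not tested, which left 12713; all 10 markers passed this filter. One mean per group was fitted to 24 groups with limma 3.58.1 (R 4.3.3), with eBayes and a trend on mean signal (92 residual degrees of freedom). Every adjusted p is Benjamini-Hochberg adjusted within a contrast over all 12713 genes, with a threshold of 0.05, and all tests are two-sided. P-values measure the spread between these animals. The labels give no slide or scan date. Tables and figures were made with Python 3.11.15, pandas 2.3.3, numpy 2.4.6 and matplotlib 3.10.9.

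The markers and gene lists were chosen with earlier results of these data known. The text names all 10 markers, from each list the 3 genes at most that had the lowest adjusted p, and the 10 genes most like the markers' mean; other called list members were named after their values were seen. Alternatives were another normalization or filter, all probes, the failing arrays, array weights, another prior, a replicate block, each replicate left out in turn, and 3 settings chosen after seeing the data: without 12 arrays, without 2 arrays, and with marker lists as covariates.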

Additional observations from a re-analysis of the deposited data

Results flagged for a closer look

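Single arrays stood apart from the rest of their group for 18 of 240 combinations of marker and group (7.5%), where chance gives about 1 in 20. On 2 arrays several markers were flagged. High-dose pioglitazone, male, day 28, replicate 4 read 7.73 for Cd14 and 11.37 for Itgam, and low-dose pioglitazone, female, day 28, replicate 5 read 6.06 for Cd68 and 11.87 for Laptm5. Both are among the 12 arrays of low correlation, and their part in these readings was not tested. The second of them was also lowest of its group, without a flag, for Ptprc (5.39), Csf1r (5.27), Cd14 (8.14) and Coro1a (9.66). The array of lowest correlation, high-dose pioglitazone, female, day 3, replicate 3, was not flagged. Its readings for Cd68 (5.63), Csf1r (5.18), Cd14 (6.89) and Ptprc (5.31) were the lowest of its group, and that for Itgam (10.10) the highest. Tyrobp (10.35), Fcer1g (8.05) and Coro1a (9.28) were lowest there too, and were the lowest readings of these genes over all high-dose arrays.

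Cd68 read 12.99 on rosiglitazone, male, day 28, replicate 3, 9.33 on low-dose pioglitazone, female, day 3, replicate 2, and 8.89 on high-dose pioglitazone, male, day 3, replicate 1, each the highest of its group. Aif1 was highest of its group at 11.19 (vehicle, male, day 28, replicate 1) and 11.84 (rosiglitazone, male, day 90, replicate 5), and lowest at 10.06 (low-dose pioglitazone, female, day 90, replicate 1) and 10.57 (high-dose pioglitazone, female, day 28, replicate 5). Itgam was highest at 8.83 (high-dose pioglitazone, female, day 28, replicate 4) and 9.30 (rosiglitazone, female, day 90, replicate 1). Among vehicle arrays Fcer1g was highest at 10.48 (male, day 28, replicate 4), Coro1a lowest at 9.71 (male, day 3, replicate 3) and Ptprc highest at 7.67 (female, day 3, replicate 2). Tyrobp was lowest at 11.13 (low-dose pioglitazone, male, day 3, replicate 5) and Csf1r at 6.18 (rosiglitazone, male, day 3, replicate 2). The rosiglitazone arrays with Cd68 at 12.99 and Itgam at 9.30 are also among the 12 of low correlation. So are the vehicle arrays with Coro1a at 9.71 and Ptprc at 7.67.

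Csf1r moved opposite ways in 2 pairs of groups at the high dose, with every array of one group above and every array of the other below its vehicle mean. Its difference was 0.31 in females at day 28, -0.32 in females at day 90 and -0.34 in males at day 28, gaps of 0.628 and 0.645. These gaps were not tested.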

How the results depend on the processing

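Over 36 single-marker results, 821 values were computed under the alternatives: 712 kept their direction and their side of the threshold, 97 kept the direction but lost the call, 11 gained one, and 1 reversed, Itgam at the low dose with the failing arrays included (0.032). A result without a call in the main fit counted as kept when it stayed without one, and only called results could lose a call. The 712 are therefore no measure of how often the calls were kept. The main counts of markers called lower were 4, 6 and 6 for the low dose, the high dose and rosiglitazone over 6 strata, 4 for the high dose and 1 for rosiglitazone at day 90, and 1 over single strata. With the failing arrays included these became 0 for the low dose, 0 for rosiglitazone, 0 for the high dose at day 90, 0 for rosiglitazone at day 90, 5 for the high dose at day 3 and 5 over strata. With covariates they were 0 for the low dose and 1 across vehicle days. With array weights they were 4, 7 and 3 at day 90 in the 3 arms, 1 between sexes at the high dose, 6 across vehicle days and 17 over strata. Without the 12 arrays they were 8 for the high dose and 0 for rosiglitazone at day 90, 4 across vehicle days and 5 over strata, and without the 2 arrays 1 across vehicle days and 2 over strata. With the lower 50% of genes left out, where Ptprc and Csf1r were not tested, they were 0 for rosiglitazone at day 90 and 2 over strata. Rosiglitazone at day 90 gave 0 with every probe tested on its own, and the mean of probes gave 2 across vehicle days. The cause was not tested. The shares of all genes called under these settings and the leave-outs below were not computed, so the counts cannot be set against them.

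With each replicate left out in turn, the counts ran from 1 to 5, 3 to 7 and 2 to 6 over 6 strata, from 0 to 3 for the high dose at day 3, from 3 to 4 for the high dose and 0 to 3 for rosiglitazone at day 90, from 0 to 1 across vehicle days, from 0 to 3 over strata, and stayed at 0 for the other counts. The low-dose count was 1 when vehicle replicate 1, vehicle replicate 2, low-dose replicate 1 or low-dose replicate 4 was left out and 2 without low-dose replicate 3, the high-dose count was 3 without high-dose replicate 3, and the rosiglitazone count was 3 without vehicle replicate 1 or rosiglitazone replicate 1 and 2 without vehicle replicate 2 or rosiglitazone replicate 3. The replicate block gave 2 calls over strata and moved no other count by over 1.5 times. Arrays of the same number in the labels had a mean residual correlation of -0.008 and 19 arrays correlated best with their own number, so the numbers share only a label.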
